A study of Homo sapiens with 6 samples.

Results

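The IFIT family comprises IFIT1, IFIT2, IFIT3 and IFIT5, the interferon-induced proteins with tetratricopeptide repeats, and its members were taken by symbol from a table of RNA-seq read counts. These 4 genes were 4 of 21462 rows, and all 4 were among the 12857 genes that passed the filter on low counts. The libraries came from A431, a human epidermoid carcinoma cell line of keratinocyte character. The control group, A431CT, is labelled with the WT genotype, and the Dsg2KO group consists of A431 cells in which desmoglein-2 (DSG2), a cadherin of the desmosome, was knocked out by CRISPR/Cas9 editing. Each group had 3 libraries of polyA RNA, and the comparison between them asked which transcripts differ when Dsg2 is lost. The labels and methods give no interferon, infection or other agent for these samples, both groups were grown in serum-containing medium, and whether the knockout line is 1 clone is not given in the sources used here.

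IFIT proteins are cytoplasmic RNA-binding proteins of the antiviral response. IFIT1 binds RNA whose cap lacks the ribose methylation that marks the cell's own mRNA, IFIT3 associates with IFIT1 and IFIT2 and stabilises IFIT1, and IFIT5 binds uncapped RNA that carries a triphosphate end. Their genes are classically induced through the interferon-stimulated response element (ISRE), a promoter motif bound by a complex that contains STAT2 and IRF9, and by other interferon regulatory factors such as IRF3.

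The family lies in 1 cluster on the plus strand of chromosome 10 (GRCh38, GENCODE annotation), and its promoters are shown first because they hold the motif through which these genes are classically induced. IFIT2 spans chr10:89283694-89309271, IFIT3 spans chr10:89327307-89377473, IFIT1 spans chr10:89392546-89406487 and IFIT5 spans chr10:89414568-89421605, and the reference (MANE) transcript of each member has 2 exons. Promoter entries of RefSeq (GRCh38.p14) matched IFIT1, IFIT5, IFIT1B and, with 2 start sites, IFIT3, but not IFIT2. Each stretch below runs, on the plus strand, from 160 bases before the first transcript base to 5 bases after it, and capitals mark matches to the ISRE core, searched as the letters TTTCNNTTTC on both strands. The stretches are chr10:89392463-89392628 for IFIT1, chr10:89327837-89328002 and chr10:89332369-89332534 for the upstream and downstream starts of IFIT3, and chr10:89414408-89414573 for IFIT5.
IFIT1: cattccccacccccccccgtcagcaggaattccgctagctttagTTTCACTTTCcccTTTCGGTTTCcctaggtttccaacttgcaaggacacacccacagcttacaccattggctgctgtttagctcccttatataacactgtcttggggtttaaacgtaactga
IFIT3 upstream start: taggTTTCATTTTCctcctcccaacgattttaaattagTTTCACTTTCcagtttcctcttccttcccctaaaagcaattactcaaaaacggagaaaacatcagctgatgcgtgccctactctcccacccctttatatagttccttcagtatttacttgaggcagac
IFIT3 downstream start: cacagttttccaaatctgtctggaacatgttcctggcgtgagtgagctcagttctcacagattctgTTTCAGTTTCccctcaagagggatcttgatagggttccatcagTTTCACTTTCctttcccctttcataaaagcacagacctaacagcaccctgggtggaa
IFIT5: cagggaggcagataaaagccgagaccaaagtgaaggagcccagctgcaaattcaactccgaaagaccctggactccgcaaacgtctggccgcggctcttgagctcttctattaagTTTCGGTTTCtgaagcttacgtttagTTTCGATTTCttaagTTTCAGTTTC

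Over the whole window of 250 bases before the start and 50 from it, IFIT1 held 2 ISRE cores, each start of IFIT3 held 2, and IFIT5 held 3, all on the plus strand. Of 35116 RefSeq promoter windows of the same length, 3.574% held at least 1 such core, 0.259% held at least 2 and 0.037% held at least 3. The IFIT1 cores were TTTCACTTTC at -116 and TTTCGGTTTC at -103, counted from the first transcript base as 0. The first of these, TTTCACTTTC, was also present at both starts of IFIT3, at -122 and -51, and occurred in 0.202% of all windows. IFIT5 shared TTTCGGTTTC with IFIT1, at -45, and TTTCAGTTTC with the downstream start of IFIT3, at -4, and its core TTTCGATTTC at -19 occurred in 0.026% of all windows. Cores thus lay 94 or more bases before the RefSeq start in IFIT1 and overlapped the first transcript bases in IFIT5. The GENCODE span of IFIT1 begins at chr10:89392546, inside the printed stretch and nearer to its cores. The IFIT1 distances, and their contrast with IFIT5, therefore depend on the annotation used. The window of IFIT1B, a related gene with no count in any of the 6 libraries, held 0 cores. Matches to the GAS core TTCNNNGAA, an element of interferon gamma responses, and to the NF-κB consensus, both searched on both strands, were found in 0 of these windows, against 7.657% and 11.266% of all windows. In so few windows, shares of this size would often give 0, so this does not set the IFIT windows apart. These matches are descriptions of letters, and binding was not measured here.

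**Figure D1:**
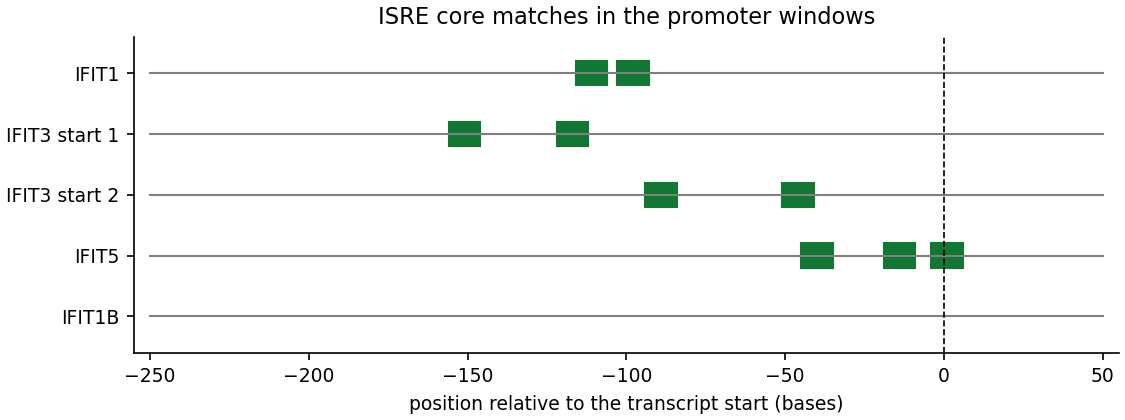
Position of ISRE core matches (green boxes) in promoter windows of IFIT1, IFIT3 (2 starts), IFIT5 and IFIT1B, with the horizontal axis in bases from the first transcript base (dashed line). The 3 boxes of IFIT5 lie at -45, -19 and -4, nearer to the RefSeq start than the boxes of IFIT1 at -116 and -103.

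The libraries held between 12845719 and 13650746 counts in A431CT and between 14786041 and 16255692 in Dsg2KO. Levels are given as CPM, read counts scaled to a fixed library total, after TMM normalisation, with factors between 0.990 and 1.01, and 3 counts, taken as the floor, corresponded to 0.184 to 0.236 CPM. DSG2 itself was at 330, 320 and 319 CPM in A431CT and at 50.9, 55.2 and 49.7 CPM in Dsg2KO (log2 fold change -2.64, SE 0.05, edgeR quasi-likelihood adjusted p = 1.29e-14), so every Dsg2KO library was lower in the targeted transcript. The 12 keratinocyte markers summed to 3484 to 3631 CPM in A431CT and 3220 to 3319 CPM in Dsg2KO. KRT14 and PKP1 had no more than 3 counts, and the other 10 were tested. Of these, 2 markers, KRT6A and KRT15, were called lower by the rule given below. With an adjusted p under 0.05 alone, 5 of the 10 were lower and 2 were higher. Of 10 leukocyte markers, 6 had at most 3 counts, and the summed 541 to 572 CPM in A431CT and 496 to 516 CPM in Dsg2KO came almost wholly from CSF1R, while fibroblast markers summed to at most 0.516 CPM. The endothelial markers summed to 8.53 to 11.5 CPM in A431CT and 15.1 to 15.7 CPM in Dsg2KO. Of the 3 tested, PECAM1 and CDH5 were called higher. The melanocyte markers summed to 17.8 to 18.5 and 14.2 to 16.9 CPM. The part of these markers in the IFIT difference was not tested. By the same rule, 6.03% of all 12857 tested genes were called, 385 higher and 390 lower. In bulk RNA, a change in the share of cells that carry a transcript and a change in its amount per cell cannot be told apart. The p-values measure the spread between these libraries, which are described as biological replicates.

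IFIT1, IFIT2 and IFIT3 rose in Dsg2KO, to 2.07, 1.61 and 1.69 times their mean CPM in A431CT, and IFIT5 did not pass the test. A gene was called where the Benjamini-Hochberg adjusted p of edgeR's quasi-likelihood test was under 0.05 and the log2 fold change was at least 0.5 in either direction. By this rule 3 of the 4 members were called, all higher, against 6.03% of all tested genes called in either direction and 2.99% called higher. With the adjusted p alone the same 3 members passed, against 14.3% of tested genes higher. All 4 members had every Dsg2KO library above every A431CT library, a pattern present in 21.2% of tested genes. The median log2 fold change of the 4 members was 0.72, and that of all tested genes was -0.0048.

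IFIT1, the sensor of RNA without cap ribose methylation, had 705, 658 and 670 counts in A431CT and 1656, 1890 and 1561 in Dsg2KO, or 55.4, 48.5 and 51.9 CPM against 111, 116 and 96.5 CPM. Its lowest Dsg2KO library stood 41.1 CPM above its highest A431CT library, and Dsg2KO replicate 3 was the lowest of the knockout libraries. The means were 52.0 ± 3.46 CPM in A431CT and 108 ± 9.99 CPM in Dsg2KO (SD, n = 3), with a log2 fold change of 1.05 (SE 0.07, 95% interval 0.90 to 1.20, adjusted p = 6.59e-08). This was the highest fold change of the family, and it stood 140th from the top among all tested genes by fold and 36th by p. IFIT1 was also the most variable of the 4 in both groups, with coefficients of variation of 6.67% and 9.27%, against 3.84% and 2.42% from counting error alone.

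IFIT2, a partner of IFIT1 and IFIT3, had 850, 818 and 844 counts in A431CT and 1528, 1690 and 1688 in Dsg2KO. The CPM values were 66.8, 60.3 and 65.4 in A431CT and 103, 103 and 104 in Dsg2KO. The knockout libraries were nearly equal, and the groups were separated by 35.7 CPM. The mean went from 64.2 ± 3.44 to 103 ± 0.915 CPM (SD, n = 3), with a log2 fold change of 0.69 (SE 0.05, 95% interval 0.58 to 0.80, adjusted p = 1.63e-07). The spread of the knockout libraries, 0.884% of the mean, was below the 2.47% that counting error gives.

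IFIT3, the member that stabilises IFIT1, carried the most counts, with 3043, 3281 and 2928 in A431CT and 6112, 6652 and 6187 in Dsg2KO. In CPM these were 239, 242 and 227 against 410, 407 and 382. Both groups were tight and did not overlap, with a gap of 141 CPM between them. The mean rose from 236 ± 7.97 to 400 ± 15.1 CPM (SD, n = 3), with a log2 fold change of 0.76 (SE 0.04, 95% interval 0.67 to 0.85, adjusted p = 9.34e-09). Its p was the smallest of the family, the 14th among all tested genes.

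IFIT5, the binder of uncapped triphosphate RNA, had 866, 915 and 869 counts in A431CT and 1063, 1160 and 1259 in Dsg2KO, or 68.1, 67.5 and 67.4 CPM against 71.3, 71.0 and 77.8 CPM. The groups did not overlap, but the gap was 2.85 CPM, and Dsg2KO replicate 3 alone stood clearly above the rest. The mean was 67.6 ± 0.401 CPM in A431CT and 73.4 ± 3.87 CPM in Dsg2KO (SD, n = 3), 8.46% more, with a log2 fold change of 0.12 (SE 0.05, 95% interval 0.0063 to 0.23). The unadjusted p was 0.0398 and the adjusted p 0.106, so IFIT5 was not called. Leaving out Dsg2KO replicate 3 brought it to 0.07 on the log2 scale (adjusted p = 0.371), and over all alternatives the adjusted p ran from 0.0548 to 0.371. The counting error of a single IFIT5 library, 3.36% in A431CT, exceeded the observed spread of 0.592% between the A431CT libraries.

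**Figure D2:**
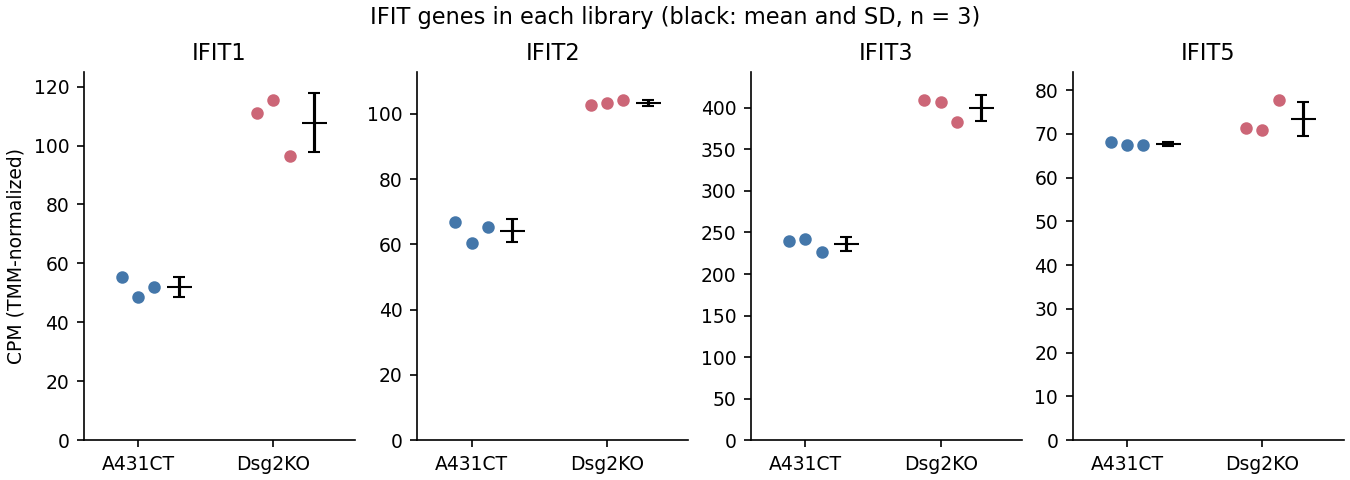
TMM-normalised CPM of IFIT1, IFIT2, IFIT3 and IFIT5 (one panel each, vertical axis from 0) in the 3 A431CT libraries (blue) and the 3 Dsg2KO libraries (red), with black marks for the mean and SD. IFIT1, IFIT2 and IFIT3 show gaps of 41.1, 35.7 and 141 CPM between the groups, and IFIT5 a gap of 2.85 CPM.

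The 4 members together gave 430, 418 and 412 CPM in A431CT and 695, 697 and 661 CPM in Dsg2KO. The family total was thus 420 ± 9.10 CPM against 684 ± 20.1 CPM (SD, n = 3), a ratio of 1.63 with no overlap. The shares of IFIT5 and IFIT1 differed most between the groups. IFIT5 made up 16.1 ± 0.257% of IFIT counts in A431CT and 10.7 ± 0.896% in Dsg2KO, and IFIT1 made up 12.4 ± 0.684% and 15.7 ± 1.02%. IFIT3 held 56.2 ± 1.43% and 58.4 ± 0.577%, and IFIT2 held 15.3 ± 0.770% and 15.1 ± 0.573%.

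Ratios between members within a library, which do not depend on library scaling, were compared to ask whether the members moved by different amounts. The ratio of IFIT1 to IFIT5 was 0.814, 0.719 and 0.771 in A431CT and 1.56, 1.63 and 1.24 in Dsg2KO, so the order of their counts was inverted in every knockout library. The ratio of IFIT3 to IFIT5 was 3.51, 3.59 and 3.37 against 5.75, 5.73 and 4.91, also without overlap. On the log2 scale the differences between the groups were 0.93 for IFIT1 over IFIT5, 0.64 for IFIT3 over IFIT5 and 0.57 for IFIT2 over IFIT5. The difference was 0.36 for IFIT1 over IFIT2 and 0.29 for IFIT1 over IFIT3, and neither ratio overlapped between groups. The IFIT2 to IFIT3 ratio differed by -0.07, with overlapping groups (two-sided exact permutation p = 0.4). For the other 5 ratios the exact permutation p was 0.1, the smallest that 3 against 3 libraries allow, and 0.12 after Benjamini-Hochberg adjustment over the 6 ratios, so no ratio could reach 0.05 in this design.

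**Figure D3:**
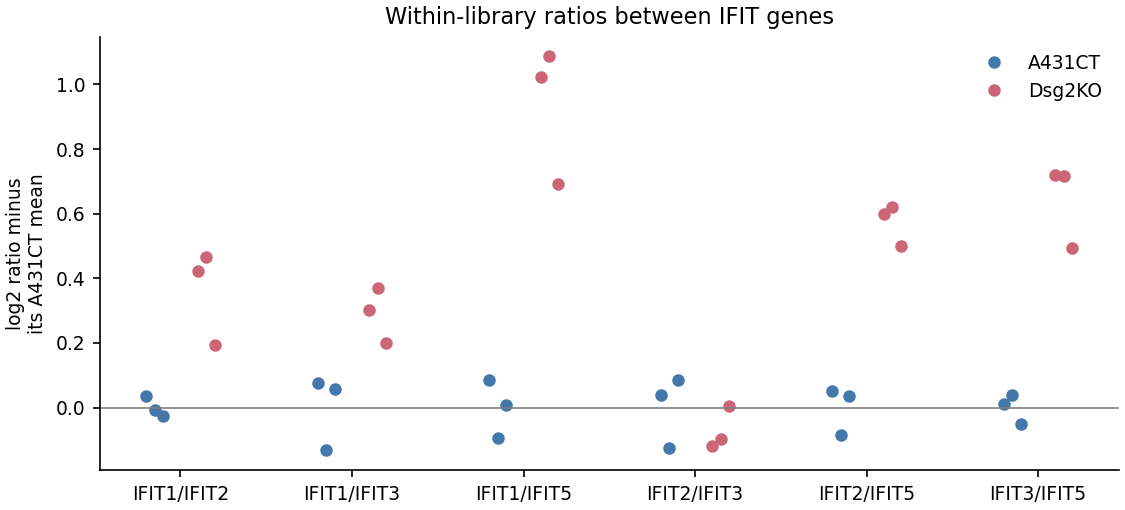
Within-library log2 ratios between pairs of IFIT genes, each minus its A431CT mean (vertical axis, log2), for 3 A431CT (blue) and 3 Dsg2KO (red) libraries. The points of the groups are separate for 5 of the 6 ratios, with the widest difference, 0.93, for IFIT1/IFIT5, and they overlap for IFIT2/IFIT3.

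Between genes, levels were compared as CPM per kilobase of merged exon. IFIT3 was highest in both groups, at 46.6 ± 1.57 in A431CT and 78.9 ± 2.98 in Dsg2KO (SD, n = 3). In A431CT it was followed by IFIT5 at 15.5 ± 0.0917, IFIT2 at 14.8 ± 0.795 and IFIT1 at 11.3 ± 0.751 CPM per kilobase. IFIT5 and IFIT2 overlapped there, and IFIT1 lay below both. In Dsg2KO the order below IFIT3 was IFIT2 at 23.9 ± 0.211, IFIT1 at 23.4 ± 2.17 and IFIT5 at 16.8 ± 0.885 CPM per kilobase. IFIT2 and IFIT1 overlapped there, and IFIT5, second in A431CT, was last. With the longest coding transcript as the length, IFIT2 stood above IFIT5 in A431CT, at 17.3 against 16.7 CPM per kilobase. With the reference transcript, a length added after the values were seen, the order was the same as with the longest coding transcript, and IFIT3 came to 98.8 and 167 CPM per kilobase. Which transcript variants were expressed was not measured.

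Reads that could belong to other genes were few by annotation. Of the 50-base stretches of the reference transcripts, 1.27% of those of IFIT1 recurred in another gene, 38 of these 54 stretches in IFIT1B, and 4.02% of those of IFIT3 recurred, 0 of them in another IFIT gene. IFIT2 and IFIT5 shared 0 such stretches. LIPA, which encodes lysosomal acid lipase, runs on the opposite strand, and its long variants span IFIT2, IFIT3 and IFIT1. Annotated LIPA exons shared 65 bases with exons of IFIT2 and 94 with exons of IFIT3, 1.5% and 1.86% of their merged exon bases, and 0 bases of the reference IFIT transcripts. IFIT2 variants also shared 524 bases with exons of a lncRNA on the same strand, again 0 of them in the reference transcript. Whether the counting used strand is not given in the sources used here, so over the shared LIPA bases reads of the strands cannot be told apart.

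LIPA itself rose, from 419, 395 and 390 CPM in A431CT to 591, 566 and 582 CPM in Dsg2KO (log2 fold change 0.53, SE 0.04, adjusted p = 1.15e-07), without overlap. It was the only 1 of 6 tested genes within 1 Mb of the IFIT genes to be called. The others were PANK1 (0.27, adjusted p = 0.0293, under the fold minimum), STAMBPL1 (0.29, 0.0708), FAS (0.10, 0.283), KIF20B (0.06, 0.493) and ANKRD22 (0.04, 0.784). IFIT5 lay between called IFIT1 and uncalled PANK1, and the nearest gene beyond IFIT5, SLC16A12, had at most 4 counts in any library. The median log2 fold change was 0.18 over these 6 neighbours and 0.04 over the 498 tested genes of chromosome 10 outside the family, of which 15 were called higher and 10 lower. Over all 12857 tested genes, 385 were called higher and 390 lower. Among the 10 tested of the 19 listed genes of the 10q23.31 neighbourhood, which include genes outside that window, 1 was called higher, LIPA, and 0 lower, with a median of 0.08.

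**Figure D4:**
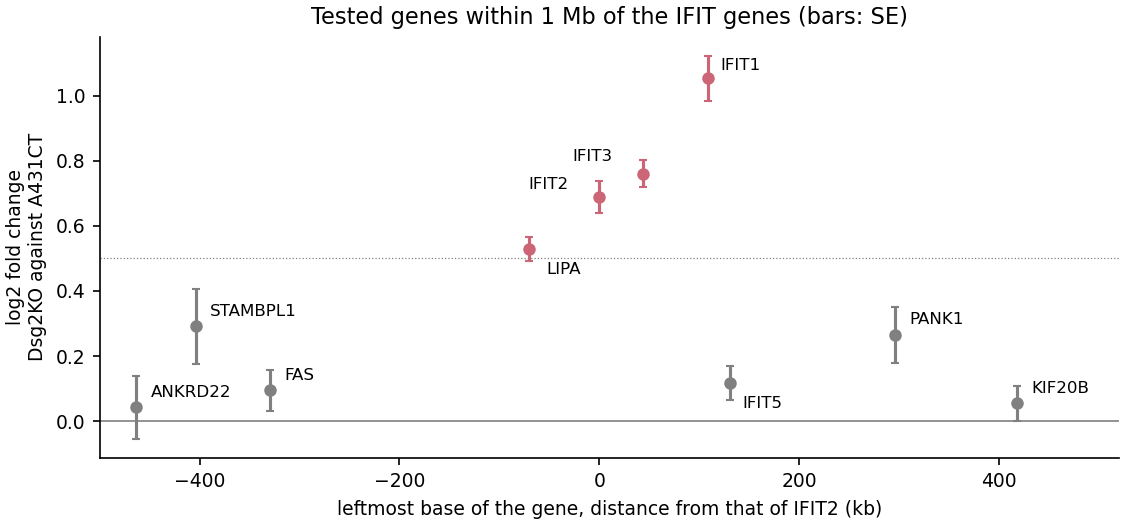
Log2 fold change (Dsg2KO against A431CT, bars SE) of the tested genes within 1 Mb of the IFIT genes, by distance of each gene's leftmost base from that of IFIT2 in kilobases. Red points were called higher and grey points were not, the dotted line marks the fold minimum of 0.5, and IFIT1 at 1.05, IFIT3 at 0.76, IFIT2 at 0.69 and LIPA at 0.53 stand above it.

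Among 41 genes of interferon production and signaling, 31 were tested, and 6 were called higher and 0 lower, and the median was 0.14. With the adjusted p alone, 14 passed as higher and 1, TBK1, as lower (-0.42). Of all tested genes, 2.99% were called higher, and 14.3% passed as higher with the adjusted p alone. Of the ISRE-binding partners IRF9 and STAT2, IRF9 rose and STAT2 stayed under the fold minimum. IRF9 had 9, 28 and 23 counts in A431CT and 77, 145 and 102 in Dsg2KO, or 1.52 ± 0.716 against 6.78 ± 1.90 CPM (SD, n = 3), a low level with separate groups (log2 fold change 2.15, SE 0.31, adjusted p = 1.06e-04). IRF9 was not tested under the alternative that asked for at least 10 counts in every library. STAT2 was at 26.4 ± 3.04 and 37.2 ± 0.696 CPM (log2 fold change 0.49, SE 0.08, adjusted p = 3.00e-04). STAT2 passed the fold minimum with scaling by total counts only (0.52), with no low-count filter (0.50), and without A431CT replicate 2 (0.57), A431CT replicate 3 (0.51) or Dsg2KO replicate 2 (0.51).

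Of the RIG-I-like receptors, the cytosolic RNA sensors upstream of interferon, IFIH1 (MDA5) was called at 0.62 (SE 0.07, adjusted p = 1.64e-05) and DDX58 (RIG-I) at 0.60 (SE 0.08, adjusted p = 4.49e-05). DHX58 (LGP2), their regulator in the same family, was at 0.30 (SE 0.10, adjusted p = 0.0353), under the fold minimum. The other called genes of this list were IFNGR2, a chain of the interferon gamma receptor, at 0.72, SOCS3, a feedback inhibitor, at 0.73, and the kinase JAK2 at 0.53. JAK2 lost its call without A431CT replicate 1 (adjusted p = 0.0513) or Dsg2KO replicate 3 (0.0502). The type I receptor chain IFNAR1 had a log2 fold change of 0.24 (adjusted p = 0.00383), and the transcription factor IRF1 had 0.14 (0.0360). IRF3 was at 0.08 (adjusted p = 0.381), IRF7, at about 1 CPM, at -0.22 (0.719), JAK1 at -0.12 (0.0773) and TYK2 at 0.06 (0.452), and none of these 4 passed the test. Interferon transcripts themselves had at most 7 counts in any library, and none of them passed the filter on low counts. IFNE, the interferon with the most counts, had 5, 5 and 7 in A431CT and 3, 1 and 5 in Dsg2KO. IFNB1 had 0, 0 and 0 counts in A431CT and 1, 2 and 1 in Dsg2KO, IFNL1 had 0, 1 and 3 against 1, 2 and 4, and 5 genes of the list had no count in any library. IFNAR2 had 17 counts in Dsg2KO replicate 1 and 0 in the other 5 libraries. Interferon transcripts were therefore not compared between the groups.

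Among 60 other interferon-stimulated effectors, 58 were tested, and 15 were called higher and 0 lower, the median being 0.21 and 53 values lying above 0. With the adjusted p alone 35 passed, all higher. The shares over all tested genes were 2.99% called higher and 14.3% higher with the adjusted p alone. The 3 with the smallest p were MX1, a dynamin-like antiviral GTPase (1.22, SE 0.07, adjusted p = 1.38e-08), OAS2, an oligoadenylate synthetase (0.91, SE 0.06, adjusted p = 6.32e-08), and MX2 (1.99, SE 0.18, adjusted p = 1.40e-06). RSAD2, viperin, was also called (1.81, SE 0.21, adjusted p = 1.35e-05), from 1.99 ± 0.360 to 6.99 ± 0.481 CPM. The ubiquitin-like modifier ISG15 (0.29, adjusted p = 1.97e-04), OAS1 (0.33, 0.0134) and OASL (0.34, 3.98e-04) passed the adjusted p but not the fold minimum. CXCL10 had 1, 1 and 1 counts in A431CT and 10, 1 and 2 in Dsg2KO and was not tested. Genes on chromosome 21 had a median log2 fold change of 0.39, with 31 of 121 tested genes called higher and 0 lower, and MX1, MX2, IFNGR2 and IFNAR1 lie there, whereas the IFIT genes do not. Of 47 tested effectors with a promoter entry, 31 held an ISRE core, 7 of the 11 that were called and 24 of the 36 that were not.

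Genes tied to what IFIT proteins bind were counted against the 6.03% of all tested genes that were called. This share amounts to fewer than 1 gene in lists of this size. It does not apply to the unadjusted p, which was under 0.05 for many tested genes. IFIT5, with an unadjusted edgeR quasi-likelihood p of 0.0398, ranked 4807th by p among all 12857 tested genes. At least 4807 of the 12857 tested genes thus had an unadjusted p under 0.05. The counts of unadjusted p under 0.05 given below were not tested against all genes, so they do not set the lists apart. Of 12 genes that form, methylate or remove the mRNA cap, the feature read by IFIT1, 0 were called by edgeR and 0 by DESeq2, 6 had an unadjusted p under 0.05 in edgeR, and the median log2 fold change was -0.01. With the adjusted p alone, NUDT16 was higher (0.18) and DCP2 (-0.22) and PCIF1 (-0.35) were lower. CMTR1, which adds the ribose methylation that keeps IFIT1 off the cell's own mRNA, was at 0.08 (SE 0.07, adjusted p = 0.434). Of 14 genes for subunits of eIF3, the translation initiation factor that IFIT1 and IFIT2 can bind, 0 were called by edgeR and 0 by DESeq2, 8 had an unadjusted p under 0.05 in edgeR, and the median was -0.09. With the adjusted p alone 1 was higher, EIF3D (0.16), and 6 were lower, among them EIF3I (-0.44). Of all tested genes, 14.3% passed as higher with the adjusted p alone. The share of all tested genes passing as lower was not counted, so neither list is set against it. EIF3E was at -0.03 (SE 0.05, adjusted p = 0.680). EIF3C and EIF3CL, near-identical copies between which reads may be split, were counted as 2 of the 14.

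**Figure D5:**
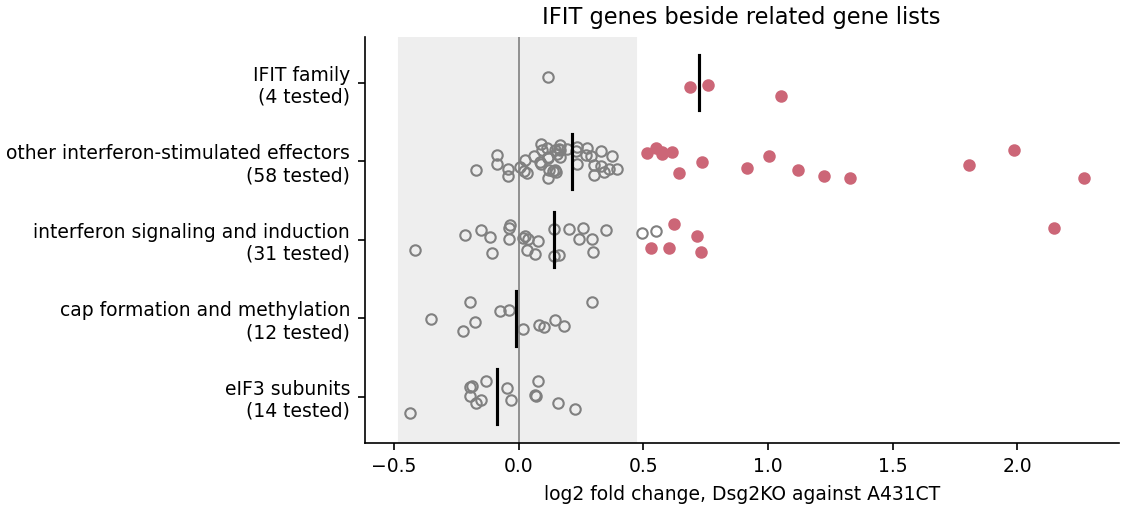
Log2 fold change (Dsg2KO against A431CT, horizontal axis) of each tested gene in the IFIT family and in 4 related lists, with filled points for called genes, black bars for list medians and a grey band from the 5th to the 95th percentile of all tested genes. The IFIT median lies at 0.72, and the medians of the effectors, signaling, cap and eIF3 lists lie at 0.21, 0.14, -0.01 and -0.09.

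Across the 6 libraries, the log2 CPM of IFIT1, IFIT2 and IFIT3 followed each other, with Pearson r of 0.985 for IFIT1 and IFIT2, 0.988 for IFIT1 and IFIT3 and 0.979 for IFIT2 and IFIT3. IFIT5 was less alike, with r of 0.704, 0.808 and 0.748 to IFIT1, IFIT2 and IFIT3. These values describe 6 libraries in 2 groups, so they largely carry the difference between the groups. The 5 tested genes most like the mean of the 4 members were ADGRL1 (r = 0.999), LMO4 (0.999), HSPA5 (0.998), TMEM98 (0.998) and MX1 (0.998). Their own log2 fold changes were 1.58, 0.53, 0.26, 3.63 and 1.22, so a pattern like that of the IFIT genes was found at very different sizes of change.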

How the data were processed

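RNA-seq of polyA RNA was analysed in 3 A431CT and 3 Dsg2KO libraries, grouped by the genotype in the labels. The authors mapped the reads to GRCh38 in CLC Genomics Workbench 23 and deposited a table of raw read counts per gene, with 0 columns that belong to no sample. The annotation and strand setting of their counting are not given in the sources used here. The counts were filtered with edgeR 4.0.16 (filterByExpr, a minimum of 10 counts), normalised by TMM and fitted with the quasi-likelihood test over all 12857 genes that passed, with Benjamini-Hochberg adjustment over all of them. This test stands in for that of CLC Genomics Workbench, while the study's thresholds were kept, 0.05 for the adjusted p and 0.5 for the size of the log2 change. The SE is the log2 fold change divided by the square root of F. Named genes were the members, DSG2, neighbours of the locus, a fixed set of interferon, cap and eIF3 genes, the 3 called genes of smallest p in each list and direction, and the 5 genes most like the members' mean. Called genes beyond these, and those passing the adjusted p alone, were named after their values were seen. The members and lists were chosen with earlier results of these data known. Replicate libraries differed by more than sampling noise (chi-square per degree of freedom 2.66 to 4.20). Alternatives were DESeq2 1.42.0, other scalings, filters and fold minimums, each library left out, a replicate block and other gene lengths. The fitting was tested on simulated data. Intervals of fold changes come from the edgeR fit and carry the spread between libraries, while the floor of 3 counts covers counting error only.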

Additional observations from a re-analysis of the deposited data

How the results depend on the processing

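IFIT1, IFIT2 and IFIT3 were called, and IFIT5 was not, under DESeq2, other scalings, other filters, no fold minimum and each left-out library, with log2 fold changes of 1.00 to 1.13, 0.65 to 0.72, 0.73 to 0.79 and 0.07 to 0.14. The exception was a fold minimum of 1, which left 1 member, IFIT1. That minimum left 1 signaling gene, 7 effectors and 0 genes of the 10q23.31 neighbourhood, all of those left being higher. The share of all tested genes past that minimum was not counted. No fold minimum gave 15 signaling genes (14 higher, 1 lower), 35 effectors and 2 neighbourhood genes, the last 2 groups all higher. It also gave 3 cap genes (1 higher, 2 lower) and 7 eIF3 genes (1 higher, 6 lower). Of all tested genes, 14.3% were higher at this setting, and the share lower was not counted. Leaving out 1 library gave 5 to 7 signaling genes, 13 to 15 effectors, 0 cap genes, 0 eIF3 genes and 1 to 2 neighbourhood genes, HTR7 (-2.19) being added without A431CT replicate 3. Per kilobase of the longest coding transcript, IFIT2 was at 17.3 in A431CT and 27.9 in Dsg2KO, IFIT3 at 58.8 and 99.6 and IFIT5 at 16.7 and 18.1. Per kilobase of the MANE transcript, chosen after seeing the data, IFIT1 was at 12.1 and 25.0, IFIT2 at 18.9 and 30.5, IFIT3 at 98.8 and 167 and IFIT5 at 16.8 and 18.2. These differences follow from the thresholds, samples or lengths used. Same-numbered libraries did not clearly deviate together (r -0.0027 to 0.0539), so they were not treated as pairs. These correlations do not show whether same-numbered libraries were prepared together. A replicate block called 3 members and gave IFIT5 0.12 (adjusted p = 0.108), and it called 386 genes higher and 383 lower against 385 and 390 without it. With 3 libraries per group, ratios between members could not pass a permutation test, and the depth limits IRF9, CXCL10 and the interferon genes.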

Other observations

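Among tested genes with a RefSeq promoter entry, 399 held an ISRE core in a window, and 20 of these (5.01%) were called higher and 9 (2.26%) lower. Of the 9636 without a core, 250 (2.59%) were called higher and 290 (3.01%) lower. The median log2 fold change was 0.0036 with a core and -0.0076 without. IFIT1 and IFIT3 were among the 20, and IFIT5, with 3 cores, was not called. Relations between the number or position of cores and the size of change were not tested.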
